A study of Mus musculus with 6 samples.

Results

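Expression of 10 genes that specify and mark the myogenic lineage was examined in skeletal muscle of transgenic (TG) and wild-type (WT) mice. The series is named after the cytokine signalling inhibitor SOCS-3. The genes were chosen by name, and every probe set of the array whose single gene symbol was one of Myod1, Myog, Myf5, Myf6, Pax7, Cdh15, Mef2a, Mef2c, Mef2d and Ncam1 was taken. This gave 11 probe sets for 10 genes, out of 35557 probe sets and 19938 genes tested. Mef2d had 2 probe sets and each other gene had 1. The TG group was 3 arrays labelled transgenic and the WT group was 3 arrays labelled wild type, and each array held RNA from the frozen skeletal muscle of 1 mouse. What the transgene carries, the promoter that drives it, the muscle taken, and the strain, age and sex of the mice are given neither by the labels nor by the series text. With 3 arrays a group, the number of arrays sets how precise each comparison can be.

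Skeletal muscle fibres form from myoblasts under 4 myogenic basic helix-loop-helix (bHLH) factors. Myf5 and MyoD, encoded by Myod1, commit cells to the lineage, and myogenin, encoded by Myog, and MRF4, encoded by Myf6, act later, during differentiation and in mature fibres. These factors bind E-boxes as heterodimers with E proteins and act together with the MEF2 factors, MADS-box proteins that bind A/T-rich sites in muscle genes. Adult muscle keeps satellite cells, the stem cells that express the paired box factor Pax7 and the adhesion protein M-cadherin, encoded by Cdh15. Ncam1 encodes the neural cell adhesion molecule, which is found on satellite cells, at the neuromuscular junction, on nerve and more widely on fibres that have lost their nerve. In adult muscle, MyoD transcript is known to be more abundant in fast fibres and myogenin transcript in slow fibres.

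The 250 bases upstream of the RefSeq start sites of Myog and Cdh15 are shown because both genes are classic markers downstream of MyoD, the factor whose transcript differed most here. In them, capitals mark the E-box CANNTG, which reads the same on both strands, and a loose form of the MEF2 core, CTANNNNTA, searched on both strands. The sequences are RefSeq's for build GRCm38.p6, each read 5′ to 3′ on the gene's own strand, the plus strand for both, at chr1:134289754-134290003 for Myog and chr8:122848124-122848373 for Cdh15.
Myog: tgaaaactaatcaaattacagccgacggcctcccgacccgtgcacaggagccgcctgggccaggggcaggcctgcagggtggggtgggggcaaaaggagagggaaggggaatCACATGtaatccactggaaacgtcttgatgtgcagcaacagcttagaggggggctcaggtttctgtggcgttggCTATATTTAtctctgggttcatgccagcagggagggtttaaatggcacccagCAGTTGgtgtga
Cdh15: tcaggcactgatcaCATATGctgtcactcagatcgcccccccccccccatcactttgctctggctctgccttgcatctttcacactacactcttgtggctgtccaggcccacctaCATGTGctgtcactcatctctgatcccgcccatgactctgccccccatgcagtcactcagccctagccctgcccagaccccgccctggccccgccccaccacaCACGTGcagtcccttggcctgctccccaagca
The Myog window held 2 E-boxes, CACATG beginning 138 bases and CAGTTG beginning 12 bases upstream of the start, and 1 match to the MEF2 core, CTATATTTA, beginning 64 bases upstream. The Cdh15 window held 3 E-boxes, beginning 236, 135 and 32 bases upstream, and 0 matches to the MEF2 core. No match overlapped another in these 2 windows. Over all 32851 promoter windows of this length in the table, 66.2% held at least 1 E-box and 19.0% at least 1 MEF2 core, while 31.8% held at least 2 E-boxes and 12.2% at least 3. A match describes the letters only. The table held windows for 7 of the 10 genes, and Myod1, Myf6 and Ncam1 had none in it. Of the windows not shown, those of Pax7, Mef2a, Mef2d and Myf5 held 0 E-boxes. The windows of Mef2c held 2, 0 and 1.

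The arrays carried muscle RNA. The 10 fibre markers, among them the creatine kinase gene Ckm, the skeletal actin gene Acta1 and the titin gene Ttn, had mean log2 levels between 12.0 and 14.6, on a table whose values ran from 1.41 to 15.1. Array medians lay between 5.98 and 6.04, and any 2 arrays correlated across genes with a Pearson r of at least 0.9943. Transcripts of liver and bone varied between the arrays, as given with the cell type markers further on.

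The comparison asked how transcripts of the myogenic factors differed between the TG and WT arrays. Myod1 had the largest difference of the 10 genes, with a mean level 1.40-fold lower in TG, and the other 9 differed by between -0.10 and 0.09 on the log2 scale. Of the 10 genes, 0 passed an adjusted p of 0.05 (limma), against 1 gene, Casp12, of all 19938 tested, or 0.00502%, and the smallest adjusted p of a member was 0.710. At an unadjusted p under 0.05 there was 1 member, Myod1, against 6.75% of all genes. The TG and WT arrays overlapped for all 10 members, whereas they did not overlap for 12.3% of all genes. The values were lower in TG for 7 members, of which Myog and Myf5 turned to above 0 with arrays set to a common median, and higher for 3, and 56.2% of all genes were lower. The median member difference was -0.029, beside -0.016 over all genes. In bulk muscle, fewer cells of a type and less RNA per cell cannot be told apart.

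**Figure D1:**
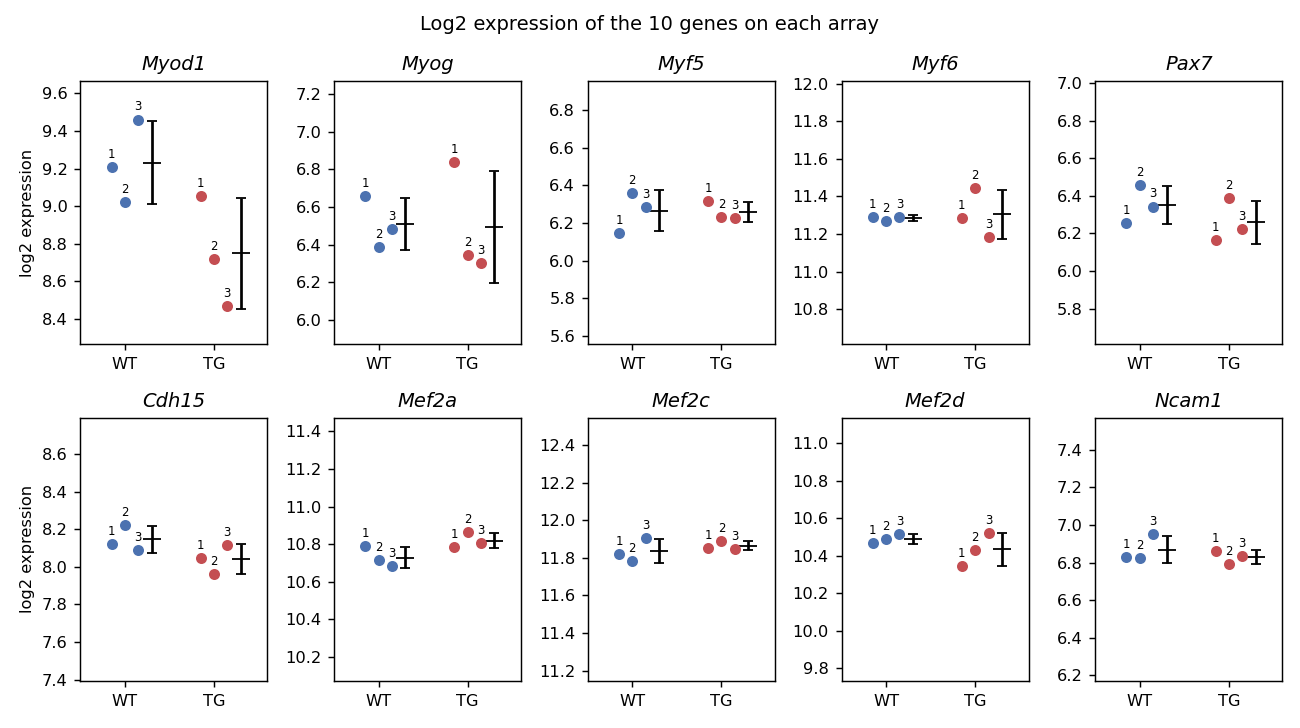
Log2 expression (y axis) of each of the 10 genes on the 3 WT arrays (blue) and the 3 TG arrays (red), with the array number beside each point and the mean and SD of the group to its right. Every panel spans the same log2 range, so the spread can be compared between genes. The TG arrays of Myod1 lie at 8.47 to 9.06 and the WT arrays at 9.02 to 9.46.

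Among the bHLH factors, Myod1 stood at 9.06, 8.72 and 8.47 on TG arrays 1, 2 and 3 and at 9.21, 9.02 and 9.46 on WT arrays 1, 2 and 3. TG array 1 lay just above WT array 2, and in 8 of the 9 pairings of a TG with a WT array the TG value was the lower. The TG mean was 8.75 ± 0.29 and the WT mean 9.23 ± 0.22 (SD, n = 3 each), which gives a difference of -0.48 (SE 0.17, 95% interval -0.87 to -0.10; limma, adjusted p = 0.710, unadjusted p = 0.0208). A difference at least this far below 0 was found for 66 genes, or 0.331% of those tested. Myod1 also varied more within groups than most genes, with a pooled SD of 0.26 beside a median of 0.11 over all genes, and 94.6% of genes had a smaller one. Leaving out TG array 3 moved the difference to -0.34 (unadjusted p = 0.0666) and leaving out WT array 3 moved it to -0.37 (unadjusted p = 0.0707), while leaving out TG array 1 moved it to -0.64 (unadjusted p = 0.0042). Without TG array 2 the unadjusted p was 0.0511, at a difference of -0.47.

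Myog, the differentiation factor, stood at 6.84, 6.34 and 6.30 on TG arrays 1 to 3 and at 6.66, 6.39 and 6.48 on WT arrays 1 to 3. TG array 1 was the highest of the 6 and the other TG arrays the lowest, so the TG arrays enclosed the WT arrays. The difference was -0.017 (SE 0.15, 95% interval -0.37 to 0.33; limma, adjusted p = 0.990). The sign turned with arrays set to a common median (0.0021) and when TG array 2, TG array 3 or WT array 1 was left out, with values of 0.059, 0.079 and 0.057, and was -0.19 without TG array 1.

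Myf5 and Myf6 are neighbours on chromosome 10 in the RefSeq gene order. Myf5, the early commitment factor, stood at 6.32, 6.23 and 6.23 in TG and at 6.15, 6.36 and 6.29 in WT, in the order of the array numbers. The TG arrays fell inside the WT range, and the difference was -0.0078 (SE 0.08, 95% interval -0.19 to 0.17; limma, adjusted p = 0.992), with a sign that turned with arrays set to a common median (0.012) or quantile-normalized (0.0057). Myf6, whose product MRF4 is the bHLH factor known to predominate in adult fibres, stood at 11.29, 11.44 and 11.18 in TG and at 11.29, 11.27 and 11.29 in WT. The WT arrays spanned 0.025 and the TG arrays 0.26 on the log2 scale, with the highest and the lowest of all 6 arrays both in TG. The difference was 0.021 (SE 0.08, 95% interval -0.17 to 0.21; limma, adjusted p = 0.974), and it was -0.049 without TG array 2.

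Myod1, the member with the largest difference in these same arrays, was compared with its paralogs within each array. The log2 value of Myod1 minus the mean of Myog, Myf5 and Myf6 was 0.91, 0.72 and 0.57 on TG arrays 1 to 3 and 1.17, 1.02 and 1.44 on WT arrays 1 to 3. Each TG array was below each WT array, with a mean difference of -0.48 and a two-sided exact permutation p of 0.10, which is the smallest that 3 against 3 arrays can give. Against single paralogs, Myod1 differed by -0.46 relative to Myog, again with no overlap (exact permutation p = 0.10), by -0.47 relative to Myf5 and by -0.50 relative to Myf6 (exact permutation p = 0.20 for each). These are 4 related contrasts that share Myod1. With 3 against 3 arrays none of the p-values could be under 0.05, so they were not adjusted over the contrasts. For the same reason the test could not decide whether the Myod1 difference exceeded that of its paralogs. Since the paralogs differed little between groups, the contrasts mostly restate the difference of Myod1 itself.

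**Figure D2:**
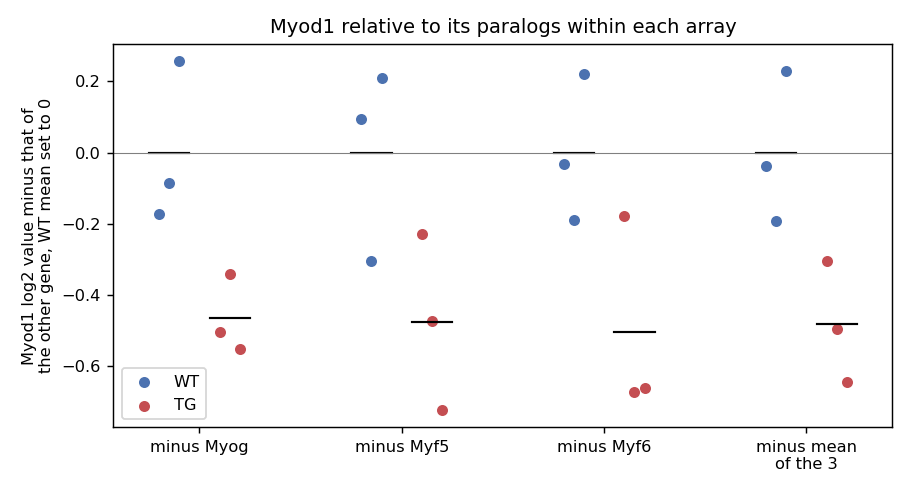
Myod1 log2 value minus that of Myog, Myf5, Myf6 or their mean on the same array (y axis, with the WT mean of each contrast set to 0), for WT arrays (blue) and TG arrays (red). Black bars are group means. The TG means lie 0.46 to 0.50 below the WT means, and the groups do not overlap for Myog and for the mean of the 3 genes.

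The MEF2 factors had small spreads and small differences. Mef2a stood at 10.79, 10.86 and 10.81 in TG and at 10.79, 10.72 and 10.68 in WT, and the TG array was the higher in all but 1 of the 9 pairings. Its difference was 0.09 (SE 0.07, 95% interval -0.06 to 0.24; limma, adjusted p = 0.811). Mef2c stood at 11.85, 11.89 and 11.85 in TG and at 11.82, 11.78 and 11.91 in WT, where the WT arrays enclosed the TG arrays. Its difference was 0.027 (SE 0.07, 95% interval -0.13 to 0.18; limma, adjusted p = 0.953). For Mef2a and Mef2c the intervals reach no further than 0.24 on the log2 scale.

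Mef2d was measured by 2 probe sets whose differences had opposite signs. The brighter one stood at 10.35, 10.43 and 10.52 in TG and at 10.47, 10.49 and 10.52 in WT, a difference of -0.057 (SE 0.07, 95% interval -0.22 to 0.11; limma, adjusted p = 0.889). The dimmer one stood at 8.80, 8.72 and 8.86 in TG and at 8.70, 8.62 and 8.74 in WT, a difference of 0.10 (SE 0.07; limma over every probe set, adjusted p = 0.863). The mean of both probe sets differed by 0.024. Within each array the dimmer minus the brighter probe set was -1.55, -1.71 and -1.66 in TG and -1.77, -1.87 and -1.77 in WT. All TG arrays were above all WT arrays in this contrast, by 0.16 on average (two-sided exact permutation p = 0.10, the smallest possible), and the contrast was chosen after its values were seen. Where in the gene each probe set lies was not determined here, so the direction for Mef2d is unsettled.

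Of the satellite cell and surface genes, Pax7, which satellite cells need to persist, stood at 6.16, 6.39 and 6.22 in TG and at 6.26, 6.46 and 6.34 in WT. The TG value was lower in 7 of 9 pairings, and the difference was -0.09 (SE 0.09, 95% interval -0.30 to 0.11; limma, adjusted p = 0.859). Cdh15 stood at 8.05, 7.96 and 8.12 in TG and at 8.12, 8.22 and 8.09 in WT. The TG value was lower in 8 of 9 pairings, and the difference was -0.10 (SE 0.07, 95% interval -0.28 to 0.07; limma, adjusted p = 0.810). Ncam1 stood at 6.86, 6.79 and 6.83 in TG and at 6.83, 6.83 and 6.95 in WT, a difference of -0.040 (SE 0.07, 95% interval -0.20 to 0.12; limma, adjusted p = 0.931). Without WT array 3, the highest for Ncam1, its difference was 0.0006. Pax7 and Cdh15 kept a value below 0 under every alternative that was run, between -0.16 and -0.04 for Pax7 and between -0.14 and -0.06 for Cdh15.

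**Figure D3:**
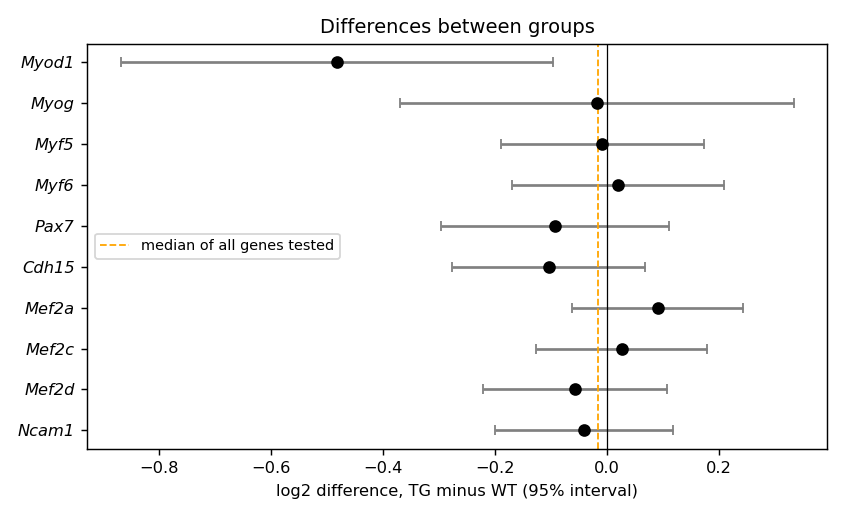
Log2 difference, TG minus WT (x axis), of the 10 genes with 95% intervals from limma. The dashed line is the median of all genes tested, -0.016. The interval of Myod1, -0.87 to -0.10, is the only one of the 10 that leaves out 0, before adjustment for the number of genes tested.

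The 10 genes did not share one ordering of the arrays. WT array 2 and WT array 3 were each the highest array for 3 members, TG array 2 for 2, and TG arrays 1 and 3 for 1 each. The lowest array was TG array 3 for 3 members, TG arrays 1 and 2 for 2 each and each WT array for 1. Of the 10 members, 8 had a pooled SD below the median of all genes, and Myod1 and Myog, at 0.26 and 0.23, were the exceptions.

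The genes whose profile over the 6 arrays was most like that of Myod1 were ranked by the root mean square difference between log2 profiles, each centred on its own mean. The nearest were the cochaperone gene Dnajc17 at 0.08, Gm10037 at 0.10, the melanocortin receptor gene Mc3r at 0.12, 9930014A18Rik at 0.12 and Tdpoz1 at 0.12, where the median over all genes was 0.33. Dnajc17 stood at 8.12, 7.85 and 7.76 in TG and at 8.33, 8.10 and 8.51 in WT, which is the same order of arrays as for Myod1. The TG and WT means were 4.98 and 5.54 for Gm10037 and 4.34 and 4.76 for Mc3r. They were 4.69 and 5.14 for 9930014A18Rik and 3.90 and 4.35 for Tdpoz1. These means lie below the array medians of 5.98 to 6.04, and signal over background was not assessed. Of the other members, Myog was nearest at 0.27 and Mef2a farthest at 0.37. Over so few arrays the ranking was unsteady, since 0 to 4 of these 5 genes stayed among the nearest 5 when 1 array was left out.

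Genes that work with or around the members were read from 9 lists, none of which contains a member. In these and the 10 marker lists described after them, 273 genes were measured and 0 passed an adjusted p of 0.05 over all genes (limma). The counts below use an unadjusted p under 0.05, which 4.79% of all genes met with lower values in TG and 1.96% with higher values, and groups that do not overlap, which 7.76% of all genes met with lower values and 4.52% with higher values. No such share was computed for the mean level of a list. With 3 against 3 arrays, 0.10 of all arrangements of the arrays separate the groups fully. When arrays shared a common median, the medians of the partners and coactivators, the MEF2 targets, the fast-fibre genes and the fibre markers turned to above 0.

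Genes listed as inhibitors of the myogenic bHLH factors were lower in TG for 14 of 20, with a median of -0.076. Of these, 4 met the unadjusted threshold with lower values and 0 with higher values, and 6 did not overlap between groups, each lower in TG. Id1, which encodes a partner-trapping protein without a DNA-binding region, stood at 7.56, 7.66 and 7.76 in TG and at 8.15, 8.41 and 7.89 in WT, a difference of -0.49 (SE 0.13; limma, adjusted p = 0.660). Bhlhe40, which encodes a repressor of the bHLH family, stood at 9.27, 8.77 and 9.47 in TG and at 9.69, 9.67 and 9.59 in WT, a difference of -0.48 (SE 0.16; limma, adjusted p = 0.710) that was -0.28 without TG array 2. The other genes without overlap were Id4, Mdfi, Hdac5 and the activin receptor gene Acvr2b. Id4 and the kinase gene Sik1 were the others at the unadjusted threshold. All of these were named after their values were seen. Sik1, Hdac5 and Acvr2b do not encode direct inhibitors of the bHLH factors, so the list name is loose for them. The counts above include these genes, so they are not counts of inhibitors alone. The mean level of the list, each gene centred on its own mean, was -0.083 to -0.038 on the TG arrays and 0.049 to 0.064 on the WT arrays, so the groups did not overlap, and the list median was -0.048 without TG array 2 and -0.11 without WT array 2, the ends of its range with 1 array left out. Id2 and Id3, close relatives of Id1 named for that relation, were at 0.0061 and -0.0046.

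Satellite cell and myoblast genes beyond the members were lower in 15 and higher in 18 of the 33 measured, with 1 at the unadjusted threshold. The list median was 0.023 over all arrays and ran from -0.014 to 0.012 with 1 array left out, below 0 without TG array 3, WT array 1 or WT array 3. The gene at the threshold was Hes1, the Notch target that encodes a repressor of the bHLH family, at 8.50, 8.41 and 8.38 in TG and 8.79, 8.68 and 8.78 in WT, a difference of -0.32 (SE 0.07; limma, adjusted p = 0.546). The groups did not overlap for Hes1. The homeobox gene Lbx1, which acts in migrating muscle precursors, was at -0.15. Pax3, the relative of Pax7, and Met, which encodes the receptor for hepatocyte growth factor, both named for their role, were at -0.0054 and 0.029. The proliferation list was lower in 12 and higher in 6 of 18 genes, with a median of -0.052 and 0 genes at the unadjusted threshold. Cdk1 and Aurkb, kinases of cell division, were at -0.39 and -0.17, and at -0.18 and -0.072 without WT array 3. Levels of Cdk1 were low, with TG and WT means of 4.59 and 4.98.

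Partners and coactivators of the myogenic factors were lower in 14 of 22 genes, with a median of -0.0095. Their mean centred level did not overlap between groups either, at -0.021 to 0.0010 in TG and 0.0079 to 0.019 in WT. The 1 gene at the unadjusted threshold was Mapk7, which encodes the kinase ERK5 that phosphorylates MEF2 factors, with a TG mean of 6.57 ± 0.07 and a WT mean of 6.87 ± 0.01 (SD, n = 3 each) and so a difference of -0.29 (SE 0.07; limma, adjusted p = 0.574). The methyltransferase gene Setd7 was at -0.13. MEF2 targets were lower in 11 and higher in 9 of 20 genes, with a median of -0.0036 that was 0.031 without TG array 3 and 0.0002 without WT array 3. Nr4a1, an orphan nuclear receptor gene, was the 1 gene at the unadjusted threshold, at -0.44 (SE 0.13; limma, adjusted p = 0.676), and Smpx, a small muscle protein gene, was at -0.14.

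Genes of differentiation and fusion were lower in 21 of 29, with a median of -0.042, and 4 met the unadjusted threshold with lower values and 0 with higher values. Igfn1, which encodes a muscle protein with immunoglobulin and fibronectin repeats, had a TG mean of 6.17 ± 0.29 and a WT mean of 6.96 ± 0.25 (SD, n = 3 each), for a difference of -0.79 (SE 0.17; limma, adjusted p = 0.546). The adhesion receptor gene Adgrb1 was at -0.20, and Cav3 and Cdkn1c were the other genes at that threshold, named after their values were seen. Named for their roles, the fusion gene Mymk was at -0.025 and the embryonic and perinatal myosin genes Myh3 and Myh8 were at -0.14 and 0.08, with overlapping groups for all of these. Mybph, which encodes a myosin-binding protein and was named after its values were seen, was at 10.21 on TG array 1 and between 8.67 and 9.13 on the other 5 arrays.

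Genes listed as denervation-responsive were lower in 5 and higher in 10 of 15, with a median of 0.038 that was -0.0087 without TG array 2. Many of them, but not all, share with Ncam1 and Myog a known increase in fibres without nerve. Musk, the agrin receptor kinase gene, and Chrng, the fetal acetylcholine receptor subunit gene, were at -0.24 and -0.26, the 2 genes of this list at the unadjusted threshold, with all TG arrays below all WT arrays for both. Chrng was at -0.15 without TG array 1. The other acetylcholine receptor subunit genes Chrna1, Chrnb1, Chrnd and Chrne, named for that relation, were at 0.0064, -0.068, -0.0033 and 0.039, with overlapping groups. The highest difference of the list was 0.87 for Ankrd1, named after its values were seen, also with overlapping groups. Fast-fibre genes were lower in 10 of 13, with a median of -0.016 and 0 genes at the unadjusted threshold. Within them Myh2 was at -0.30, and at -0.12 without WT array 3, and Myh1 was at 0.06. Slow-fibre genes were lower in 10 of 13, with a median of -0.075 and with 2 genes lower and 1 higher at the unadjusted threshold, namely Mybpc1 at 0.26, Myoz2 at -0.52 and Tnnt1, which was named after its values were seen. Without WT array 3, Myoz2 was at -0.28. That array had both the highest mean level of the slow-fibre list, 0.12 after centring, and the highest Myod1.

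**Figure D4:**
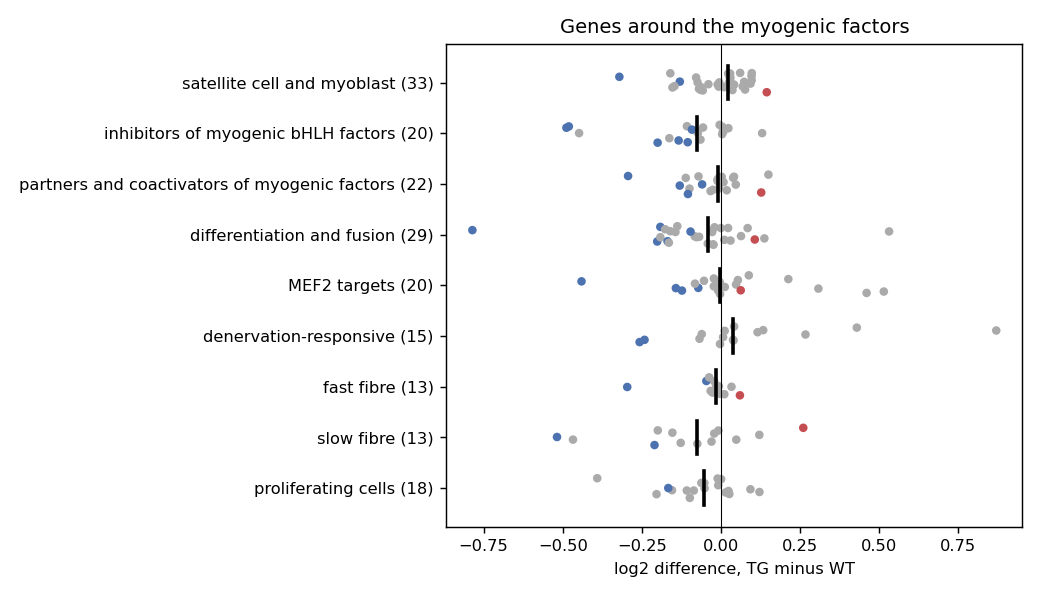
Log2 difference, TG minus WT (x axis), of the genes in each of 9 lists, with the number measured in parentheses. Blue points have all TG arrays below all WT arrays, red points the reverse, grey points overlap, and black bars are list medians. The list medians lie between -0.076 and 0.038. Blue and red points number 6 and 0 for inhibitors, 5 and 1 for differentiation and fusion, and 4 and 1 for partners and for MEF2 targets. They number 2 and 1 for the satellite cell, fast-fibre and slow-fibre lists, 2 and 0 for denervation-responsive genes and 1 and 0 for proliferation. Over all genes, 7.76% would be blue and 4.52% red.

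Markers of other cell types were read on the same arrays, because Ncam1 and Mef2c are also expressed outside muscle fibres. Schwann cell and nerve markers were lower in 7 of 10, with mean centred levels of -0.063 to 0.016 in TG and -0.014 to 0.038 in WT, and Ngfr and Mbp were at -0.17 and -0.13, with Mbp at -0.050 without TG array 2 and -0.067 without WT array 2. NK and T cell markers were lower in 6 of 10, at -0.15 to 0.013 in TG and -0.0045 to 0.11 in WT, with Cd3g at -0.30 and Cd8a at -0.24. The mean levels of these markers were low, from 3.21 to 5.995, beside array medians of 5.98 to 6.04. Endothelial markers were lower in 7 of 10, at -0.081 to -0.0058 in TG and -0.0039 to 0.064 in WT, and the named genes Egfl7 and Pecam1 were at -0.25 and 0.14. Smooth muscle and pericyte markers were lower in 5 of 9, with Myh11 at 0.16 and Kcnj8 at -0.11, the latter at -0.21 without WT array 2, -0.070 without WT array 1 and -0.041 without WT array 3. The TG and WT ranges of these lists overlapped, except those of the endothelial list, which lay close together at -0.0058 and -0.0039. Skeletal muscle fibre markers, lower in 6 of 10, had mean centred levels of -0.016 to -0.0013 in TG and -0.012 to 0.042 in WT. At the unadjusted threshold was 1 gene each of the nerve, NK and T cell and endothelial lists, all lower in TG. The smooth muscle and fibre lists had 0.

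Markers of macrophages, fibroblasts, adipocytes and bone were mostly higher in TG, in 10 of 11, 7 of 8, 6 of 7 and 8 of 10 genes. Over all genes, 56.2% were lower. At the unadjusted threshold were 3 macrophage, 1 adipocyte and 2 bone genes with higher values and 1 fibroblast gene with lower values. Over all genes, 1.96% met it with higher and 4.79% with lower values. Groups did not overlap, with TG higher, for 2 macrophage, 2 adipocyte, 2 bone and 1 fibroblast genes, and with TG lower for 1 fibroblast gene. The macrophage genes Itgam and Tyrobp were at 0.57 and 0.26, and the fibroblast genes Pi16 and Pdgfra at -0.28 and 0.16. Ccr2, the other macrophage gene at the threshold, named after its values were seen, was at 0.56. Its groups overlapped and its values lay below the array medians. The adipocyte genes Adipoq and Plin1 were at 0.64 and 0.21, and the osteoclast genes Ctsk and Acp5 at 0.57 and 0.69. Levels of Itgam and Adipoq were low, with TG and WT means of 5.64 and 5.06 for Itgam and 5.925 and 5.289 for Adipoq. The mean centred levels in TG and WT were -0.094 to 0.24 and -0.27 to 0.023 for macrophages, -0.10 to 0.19 and -0.11 to -0.023 for fibroblasts, 0.036 to 0.21 and -0.14 to -0.055 for adipocytes, and -0.16 to 0.52 and -0.30 to -0.038 for bone, and of these the adipocyte ranges did not overlap. Acp5 was at 0.43 without TG array 1. The macrophage list median was 0.15 over all arrays, -0.0012 without WT array 3 and 0.33 without WT array 2. TG array 1, which had the highest Myog, also had the highest bone level, and WT array 3, which had the highest Myod1, had the lowest macrophage level. Hepatocyte markers were lower in 9 of 9, with 0 at the unadjusted threshold. Hpx and Apoa1, the 2 with the smallest p, were at -1.01 and -0.78. Hpx was at -1.61, -0.55 and -0.53 when TG array 2, TG array 3 or WT array 2 was left out, and Apoa1 was at -1.33 and -0.33 when TG array 2 or TG array 3 was left out. The mean centred level of the hepatocyte list was -0.54, 0.97 and -1.55 on TG arrays 1 to 3 and -0.068, 0.65 and 0.54 on WT arrays 1 to 3. TG array 3 was thus lowest both for liver transcripts and for Myod1, while TG array 2 was highest for liver transcripts and second lowest for Myod1. The part of these cell types in the differences of the members was not tested.

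**Figure D5:**
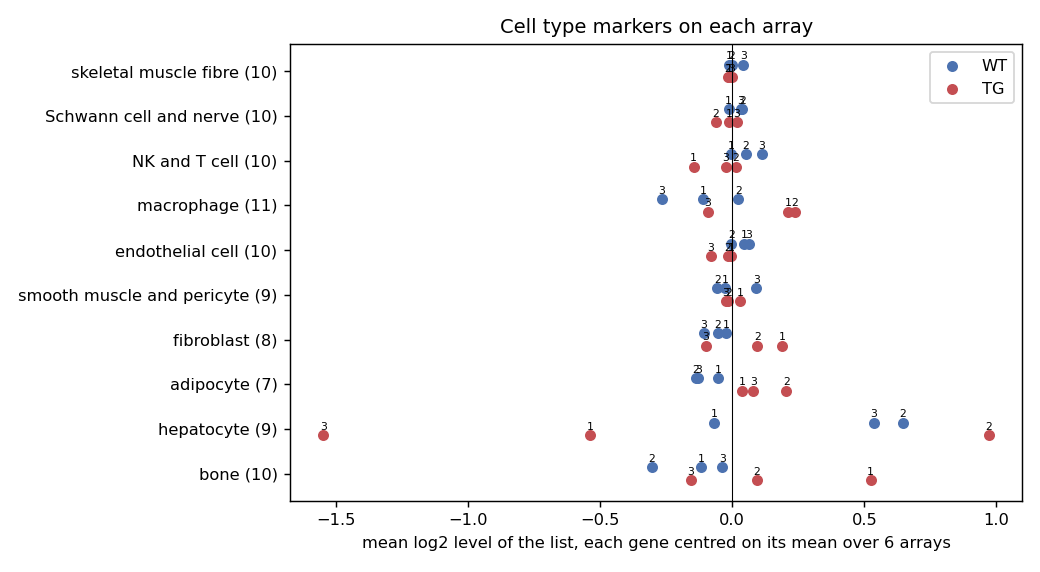
Mean log2 level of each cell type's markers on each array (x axis), after each gene was centred on its mean over the 6 arrays, with the number of markers measured in parentheses and the array number above each point. WT arrays are blue and TG arrays red. The hepatocyte list spans -1.55 to 0.97, both ends in TG, and the fibre list -0.016 to 0.042.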

How the data were processed

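RNA of 6 mice was biotin-labelled and hybridised to Affymetrix arrays, per the labels' protocols and the series text. The deposited table holds 1 log2 value per probe set and array. That scale was inferred from the range of the values. How they were summarized and normalized is stated neither in the labels nor in the series text. All 6 columns were used as deposited and 0 were left out. Gene names came from the platform annotation, in which 21789 probe sets had 1 gene symbol, 1621 several and 12147 none. The last 2 kinds carry no name here.

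For a gene with several probe sets, that with the highest mean over all arrays was used. The main test was limma's moderated linear model (limma 3.58.1, R 4.3.3), two-sided, adjusted by Benjamini-Hochberg over 19938 genes at a threshold of 0.05. A difference is always the TG mean minus the WT mean, its interval is at 95%, and a ± is an SD. Contrasts within arrays used the exact permutation test of scipy 1.17.1. Array numbers follow deposit order and pair no animals. The members and lists were chosen with earlier results of these data known. All members were named, with the 2 genes of smallest p in each list and the 5 genes nearest to Myod1, and any other gene was named for its role or after its values were seen. In 10 simulated datasets of 19938 genes, 200 were shifted by 0.5, 1 or 2 on the log2 scale, mixed in each dataset. Of these shifts, 68.7%, 99.3% and 99.8% were called, and 5.24% of calls were false. Before the shifts were added, 1 of the 10 datasets had calls. The noise was independent and normal with each gene's moderated variance, so the shares may be too high for the real arrays. The shares are averages over genes. They do not give the sensitivity for a gene as variable as Myod1, or where few genes differ. The alternatives concerned the variance model (a trend with intensity, robust moderation), array weights, scaling (quantile, common median), the exclusion of genes below the median level, the probe sets used (each alone, or their mean), a second threshold, and leaving out 1 array at a time.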

Additional observations from a re-analysis of the deposited data

How the results depend on the processing

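No member passed the adjusted threshold under any of the 15 alternatives, and the adjusted p of Myod1 ran from 0.647 to 0.937 with differences from -0.64 to -0.34. Values near 0 changed sign. Myog was at 0.0021 and Myf5 at 0.012 with a common array median, Myf5 at 0.0057 with quantile normalization, and Mef2d at 0.024 with the mean of its probe sets. With 1 array left out, Myog ran from -0.19 to 0.079, Myf5 from -0.067 to 0.040, Myf6 from -0.049 to 0.082 and Ncam1 from -0.062 to 0.0006, and the count of members at an unadjusted p under 0.05 ran from 0 to 1. The other 5 members kept their direction in every alternative run, but Mef2c only barely, at 0.0003 without WT array 2. The count of all genes past the threshold, 1, was 7 with an intensity trend, 2 among genes above the median level, 31 with an unadjusted p under 0.01 and a 1.5-fold difference, and 0 with robust moderation, a common array median, every probe set or any 1 array left out. Pax7 and Myf5 fell below the median level and have no value in that alternative. The medians of the 19 lists moved by less than 1 SD in 129 of 152 alternatives. That SD is the pooled within-group SD of each list's own centred array medians, so it is wide for lists that vary between arrays. The hepatocyte median ran from -1.33 to -0.10 and never counted as moved. The satellite cell list moved in 7 of 8 alternatives and the partners and coactivators in 5 of 8. The contrast of both Mef2d probe sets, added after seeing the data, stayed between 0.12 and 0.20. No paired analysis was possible because the labels give no replicate numbers that the groups share. Raw probe intensities were not used here, so signal over background was not assessed.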
